A study of Mus musculus with 6 samples.

Results

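The genes described here are 42 genes of the interferon response and of nucleic acid sensing, taken by symbol from a fixed list and matched 42 of 42 among the 54532 gene identifiers that were counted in each library. The libraries were made from polyadenylated RNA of whole brains of C57BL/6J mice at postnatal day 14, with 3 brains per group. The controls were Mphosph8fl/+ Nestin-Cre+ per the labels, so they kept an intact allele of Mphosph8, and the mutants, labelled Mphosph8∆n, were Mphosph8fl/fl Nestin-Cre+. Both groups therefore carried the Nestin-Cre transgene. MPP8, the product of Mphosph8, is a subunit of the silencing complex HUSH, and the libraries were made to find which transcripts change when it is lost.

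Nestin-Cre removes the floxed exon in neural progenitors and in the neurons, astrocytes and oligodendrocytes that descend from them. Microglia and endothelial cells, which also make interferon-stimulated transcripts, come from other lineages and are present in a whole brain. Mphosph8 itself was at 55.8, 48.6 and 70.7 CPM (counts scaled to the effective library size) in the control libraries and at 33.1, 27.2 and 26.5 CPM in the mutant libraries, a log2 fold change of -1.02 ± 0.12 (SE, edgeR adjusted p 0.000157). Depth ran from 12956880 to 15223424 counts per library, so that 1 count was worth between 0.0665 and 0.08 CPM. Control replicate 3 stood apart from the other libraries in having 3641 counts of the Y-linked genes Ddx3y, Eif2s3y, Kdm5d and Uty, against at most 1 count in any other library. Xist had 27 counts in it and 11130 to 17697 in the others. By these genes it came from a male and every other brain from a female, so sex was not balanced between the groups. Without control replicate 3 the median log2 fold change over the tested members was 0.13 and 0 were called. In that fit 4 members close to 0 changed sign, Dhx58 to 0.13, Mavs to 0.05, Gbp2 to -0.02 and Rtp4 to -0.08. The members that moved most among the others were Xaf1, to 0.78, Isg15, to -0.28, and Ifit1, to 0.83.

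Cells recognise foreign nucleic acid with receptors for double-stranded RNA, such as RIG-I, MDA5 and TLR3, and with DNA sensors. Their signal passes through adaptors such as MAVS to the transcription factors IRF3 and IRF7, which switch on interferon genes. Secreted interferon binds its receptor, made of IFNAR1 and IFNAR2, and the factor ISGF3, which contains STAT2, then binds the interferon-stimulated response element (ISRE) in the promoters of the interferon-stimulated genes. Transcripts of endogenous retroelements can engage the same receptors, and a rise of the interferon-stimulated genes is the usual readout of such an event.

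The ISRE was searched for on either strand as GAAA, any 2 bases and GAAA again (overlapping matches allowed) in the RefSeq promoter windows of GRCm38.p6, which span 250 bases before to 50 bases after a transcription start. RefSeq starts differ from the GENCODE gene ends for some genes, so that the stretches shown for Ifit1 (the longer one) and Gbp2 run past the GENCODE start. Of the members, 35 had a window and 18 of these (51.4%) held the letters, against 3.99% of the 27025 genes with a window. Dhx58, Zbp1, Usp18, Mx1, Parp14, Ifi27 and Rtp4 had no window. The stretches below, 5′ to 3′ on the strand of the gene with the matching letters in capitals, are shown because they include 3 of the members with the smallest p-values (Ifit1, Ddx60 and Gbp7) and 3 that carry the same letters and had log2 fold changes close to 0 (Gbp2, Isg15 and Bst2).
Ifit1 (chr19:34640765-34640833, plus strand, bases -124 to -56 from the start): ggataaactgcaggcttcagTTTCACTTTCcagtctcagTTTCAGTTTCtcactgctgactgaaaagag
Ddx60 (chr8:61928014-61928086, plus strand, bases -73 to -1): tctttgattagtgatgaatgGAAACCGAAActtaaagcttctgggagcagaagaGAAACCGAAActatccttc
Gbp7 (chr3:142530263-142530312, plus strand, bases -73 to -24): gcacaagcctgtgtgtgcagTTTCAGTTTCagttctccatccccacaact
Gbp2 (chr3:142620584-142620633, plus strand, bases -79 to -30): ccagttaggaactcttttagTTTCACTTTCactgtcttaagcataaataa
Isg15 (chr4:156200855-156200916, minus strand, bases -98 to -37): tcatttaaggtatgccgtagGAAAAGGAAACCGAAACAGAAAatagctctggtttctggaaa
Bst2 (chr8:71537567-71537622, minus strand, bases -150 to -95): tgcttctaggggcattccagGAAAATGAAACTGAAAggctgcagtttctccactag

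Of the 42 members, 38 passed the filter on low counts and 4 did not (Zbp1, Trex1, Mx1 and Cxcl10). No tested member was called higher at an adjusted p under 0.05 and more than a 2-fold change, and 0 were called lower, where edgeR called 0.353% of all 16731 genes tested higher and 0.00598% lower. Without the fold limit the counts were also 0 and 0, against 0.532% and 0.0956% of all genes tested. DESeq2 put 0 of 41 members past an adjusted p of 0.05 in either direction. Of the 22885 genes with a DESeq2 adjusted p, 0.358% were higher and 0.109% lower. For limma-voom it was 0 of 38 (0.484% and 0.102% of all genes tested). At an unadjusted p under 0.05, edgeR found 5 members higher and 0 lower, against 4.09% of all genes tested higher and 2.41% lower. Limma-voom found 6 and 0 (4.11%), and DESeq2 5 and 0 (1.56%). The DESeq2 share also counts genes below the filter on low counts, so it is not on the same footing as the other 2 shares. The 5 members that edgeR found were Ifit1, Usp18, Ddx60, Gbp7 and Lgals3bp, and the smallest edgeR adjusted p among them was 0.175, for Ifit1.

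The values none the less lay unevenly around 0. The log2 fold change was positive for 27 of the 38 tested members (71.1%, against 47.6% of all genes tested) and its median was 0.10, against -0.01 over all genes tested. In 12 members every mutant library was above every control library, and in 1 member, Irf3, every mutant library was below, where the shares over all genes tested were 6.23% and 5.42%. The sizes were small for most members. The largest log2 fold change was 1.02, for Ifit1, and the smallest -0.45, for Oas1a, and 3 members (Ifit1, Usp18 and Ddx60) were more than 1.5-fold higher at any p, against 2.47% of all genes tested. For 33 of the 38 members the 95% interval of the fold change lay wholly below a doubling, against 94.1% of all genes tested. The 5 members for which a doubling was within the interval were Ifit1, Usp18, Ddx60, Ifi44 and Xaf1, all at mean levels below 3 CPM in both groups. Without mutant replicate 1 the median of the members was 0.16 and 9 members were higher at an unadjusted p under 0.05, against 4.72% of all genes in that fit.

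**Figure D1:**
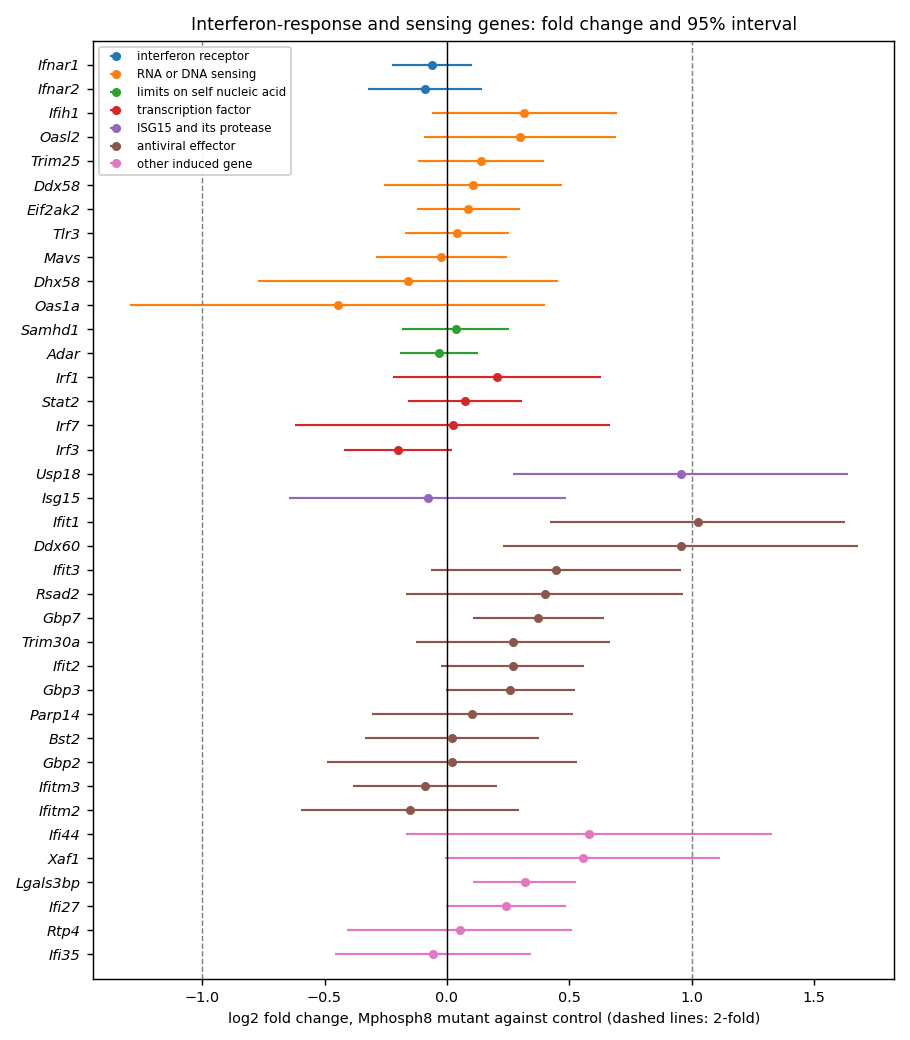
Each point is the log2 fold change of 1 tested member, mutant against control, with its 95% interval from edgeR as a horizontal bar, coloured by role, and dashed lines mark a 2-fold difference in either direction. Most points lie within 0.5 of 0, and the intervals of Ifit1, Usp18, Ddx60, Ifi44 and Xaf1 reach past the 2-fold line on the right.

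The interferon genes themselves had almost no counts. Of 20 genes for interferons of types I, II and III, 18 had no count in any of the 6 libraries. Ifnb1, which encodes interferon beta, had 1 count, in control replicate 1. Ifng, which encodes interferon gamma, had 1 count in each of control replicates 1 and 2. The 3 mutant libraries held 0 counts of each of the 20 genes, which allows a level of up to 0.0756 CPM for a gene over these libraries (3 counts, counting error only). Sequence shared among these 20 genes was not searched for. Reads that match several genes may be missing from the counts, and the bound does not cover them. The receptor genes, in contrast, were well expressed. Ifnar1 (chromosome 16) was at 71.1, 72.3 and 77.4 CPM in controls and 73.3, 67.9 and 70.4 CPM in mutants. Its log2 fold change was -0.06 (95% interval -0.22 to 0.10). Ifnar2 was at 20.3, 20.7 and 21.3 CPM against 21.8, 20 and 16.9 CPM, at -0.09 (-0.32 to 0.14). In both genes the groups overlapped.

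Among the genes that sense nucleic acid or relay the signal, 9 of 10 were tested and 0 passed the threshold, with log2 fold changes from -0.45 to 0.32 and a median of 0.09. Ddx58, which encodes the RNA receptor RIG-I, was at 6.58, 6.88 and 5.4 CPM in controls and 5.68, 6.34 and 8.22 CPM in mutants, and the groups overlapped. Ifih1, which encodes MDA5, the receptor for long double-stranded RNA, was at 4.32, 4.54 and 5.67 CPM against 6.88, 5.15 and 6.11 CPM. At 0.32 ± 0.18 (SE, edgeR adjusted p 0.866) its log2 fold change was the largest of this group, and the interval ended at 1.62-fold. Dhx58, which encodes the related helicase LGP2, was at -0.16, with overlapping groups. Tlr3, the endosomal receptor for double-stranded RNA, varied little, at 19.8, 20.4 and 20 CPM in controls and 20.5, 19.5 and 22.0 CPM in mutants. Mavs, the mitochondrial adaptor of RIG-I and MDA5, was at -0.02, and Trim25, a ubiquitin ligase that acts on RIG-I, at 0.14.

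The RNA-activated kinase PKR, encoded by Eif2ak2, was at 18.6, 18.9 and 20.1 CPM in controls and 20.1, 20.7 and 20.4 CPM in mutants. The upper bound of its interval was 1.23-fold. Oasl2, a member of the oligoadenylate synthetase family, was the gene of this group whose libraries did not overlap, at 3.72, 4.1 and 3.44 CPM against 4.24, 5.08 and 4.51 CPM (log2 fold change 0.30 ± 0.19, edgeR adjusted p 0.893). Oas1a, which makes the 2-5A messenger that activates RNase L, was at 0.864, 0.806 and 0.607 CPM against 0.48, 0.448 and 0.727 CPM. Its value is uncertain, since 57.6% of the 50-base words of its transcripts also occur in transcripts of other genes, most often Oas1g. Of the 3 members that keep the cell's own nucleic acid from setting off the sensors, the 2 tested were at similar levels in both groups. Adar, whose product edits double-stranded RNA, was at 112, 116 and 111 CPM in controls and 104, 111 and 115 CPM in mutants, and its interval reached from -0.19 to 0.13. Samhd1, a nucleotide hydrolase that restricts retroviruses and retroelements, was at 0.04 with an interval of -0.18 to 0.25.

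Of the transcription factors, 4 of 4 were tested and 0 passed the threshold. Irf3, the factor that the sensors activate first and which is made without interferon, was at 32.0, 32.2 and 31.2 CPM in controls and 23.3, 31.1 and 28.6 CPM in mutants. The mutant libraries thus lay below the controls, mutant replicate 2 by a small margin, and the log2 fold change was -0.20 ± 0.11 (SE, edgeR adjusted p 0.811). Stat2, the component of ISGF3, was at 42.2, 43.4 and 49.5 CPM against 38.7, 54.1 and 49.4 CPM. Irf7, which is itself induced by interferon and amplifies the response, was at 1.46, 1.83 and 1.75 CPM against 0.96, 2.09 and 2.04 CPM, and Irf1, induced mainly by interferon gamma, at 4.26, 4.32 and 3.78 CPM against 3.6, 4.7 and 5.89 CPM. In these 4 genes mutant replicate 1 was the lowest of the 6 libraries, and the groups overlapped in 3 of them.

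Isg15 and Usp18 belong to 1 pathway. ISG15 is a ubiquitin-like protein that is joined to other proteins during the response, and USP18 removes it and also shuts off signalling from the interferon receptor. Isg15 was at 2.33, 2.71 and 1.55 CPM in controls and 2.4, 2.02 and 1.82 CPM in mutants, so the groups overlapped, and its interval ended at 1.4-fold. Usp18 (chr6:121245906-121270917, plus strand) was at 0.931, 0.806 and 0.742 CPM in controls and 1.2, 2.02 and 1.6 CPM in mutants, with every mutant library above the controls. These values rest on 36 counts in all from the controls and 64 from the mutants. The log2 fold change was 0.95 ± 0.32 (SE, edgeR adjusted p 0.404), and its unadjusted p was under 0.05 in 11 of the 12 alternative fits, the exception being the fit without mutant replicate 2.

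Of 14 antiviral effector genes, 13 were tested, 11 had a positive log2 fold change and 0 passed the threshold, with a median of 0.27 and values from -0.15 to 1.02. In 7 of the 13 every mutant library was above every control library, against 6.23% of all genes tested. The IFIT proteins bind viral RNA and lie side by side on chromosome 19. Ifit1 (chr19:34640871-34650009, plus strand) was at 1.46, 1.54 and 0.945 CPM in controls and 2.72, 3.28 and 2.04 CPM in mutants, and every mutant library was above the controls. These values rest on 57 and 106 counts, and the means were 1.32 ± 0.323 and 2.68 ± 0.625 CPM (SD, n = 3). The difference on the log2 scale was 1.02 ± 0.29 (SE, 95% interval 0.42 to 1.63, edgeR adjusted p 0.175). Over the alternatives its log2 fold change ran from 0.83 to 1.19, its unadjusted p was under 0.05 in 12 of 12, and its edgeR adjusted p fell to 0.035 when the low-count genes were kept, while DESeq2 gave the highest adjusted p, 0.669. Of its 50-base words, 7.13% occur in other genes, most often Ifit1bl2. The ISRE letters stand in its promoter at 2 places, which can be seen in the longer stretch chr19:34640639-34640888 (plus strand, the 250 bases before the RefSeq start, which lies inside the GENCODE gene given above).
Ifit1 promoter: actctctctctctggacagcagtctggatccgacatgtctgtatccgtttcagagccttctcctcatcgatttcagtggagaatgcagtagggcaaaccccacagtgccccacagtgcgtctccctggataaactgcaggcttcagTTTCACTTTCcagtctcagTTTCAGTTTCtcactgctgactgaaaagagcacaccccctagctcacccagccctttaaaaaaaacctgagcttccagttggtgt

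Ifit2 was at 9.57, 8.72 and 8.91 CPM in controls and 12.7, 10.5 and 9.6 CPM in mutants, without overlap (0.27 ± 0.14, edgeR adjusted p 0.806). Ifit3 was at 2.53, 2.64 and 1.89 CPM against 2.64, 4.03 and 2.91 CPM, and at 3 digits its highest control equals its lowest mutant. Of its words, 51.2% occur in other genes, most often Ifit3b, so its counts are uncertain. The ISRE letters were in the window of Ifit3 and not in those of Ifit2. Ddx60 (chr8:61928087-62038244, plus strand), a helicase that is induced with the other effectors, was at 0.532, 1.17 and 1.15 CPM in controls and 1.36, 2.39 and 1.74 CPM in mutants, from 41 and 73 counts. Its log2 fold change was 0.95 ± 0.34 (SE, edgeR adjusted p 0.473). Without control replicate 1, which had the lowest level, it was 0.66.

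The guanylate-binding proteins are GTPases that attack intracellular pathogens, and Gbp2, Gbp3 and Gbp7 lie in 1 cluster on chromosome 3. Gbp7 (chr3:142530342-142550149, plus strand) was at 8.98, 10.5 and 11.5 CPM in controls and 13.8, 13.3 and 13.1 CPM in mutants (log2 fold change 0.37 ± 0.13, edgeR adjusted p 0.41). Its neighbour Gbp3 was at 10, 9.23 and 8.91 CPM against 11.3, 11.3 and 11.2 CPM (0.26 ± 0.13, edgeR adjusted p 0.776). In these 2 genes the groups did not overlap and the mutant libraries lay close together. Gbp2 was at 3.39, 2.78 and 2.83 CPM against 2.4, 4.18 and 2.54 CPM, with mutant replicate 2 the highest of the 6 and mutant replicate 1 the lowest. The 3 genes share few words with others, from 2.03% to 3.75%, and 637 of the 5614 exonic bases of Gbp7 also lie in exons of Gm43802 on the same strand.

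Rsad2, which encodes viperin, was at 1.93, 3.59 and 3.64 CPM in controls and 4.16, 5.23 and 2.69 CPM in mutants, and the groups overlapped. Trim30a was at 3.26, 3.74 and 4.18 CPM against 4.4, 4.78 and 4.29 CPM without overlap (log2 fold change 0.27 ± 0.19, edgeR adjusted p 0.908). Bst2, which encodes tetherin, an anchor that holds budding virus particles, was at 6.45, 4.91 and 5.74 CPM against 5.28, 6.42 and 5.67 CPM. Ifitm3, whose product blocks viral fusion in endosomes, was at 13.7, 16.9 and 12.1 CPM against 11.4, 14.2 and 14.5 CPM, and its interval ended at 1.15-fold. Its relative Ifitm2 was at -0.15, with 22.8% of its words found in other genes. Per kilobase of exon, Ifitm3 had the highest mean level of the members, at 20.3 CPM per kilobase, and Ifi27 followed at 17.1, so the genes with the most transcript per length were not those with the largest differences. The ADP-ribosyltransferase gene Parp14 was at 0.10, with overlapping groups.

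**Figure D2:**
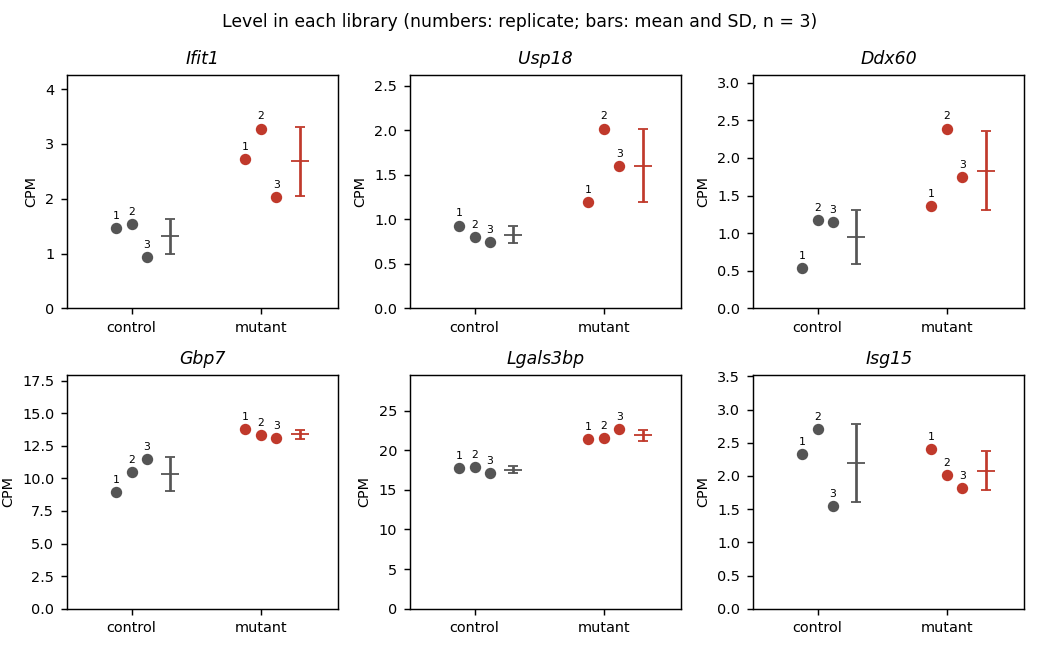
Each panel gives the CPM of 1 gene in the 3 control (grey) and 3 mutant (red) libraries, numbered by replicate, with the mean and SD (n = 3) beside the points, and every vertical axis starts at 0. The 3 mutant libraries lie above the 3 control libraries for Ifit1, Usp18, Ddx60, Gbp7 and Lgals3bp, the 5 members with an unadjusted p under 0.05, and overlap them for Isg15.

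Of 7 other genes known as interferon-induced, 6 were tested, 5 had a positive log2 fold change and 0 passed the threshold. Lgals3bp (chr11:118392751-118402092, minus strand), which encodes a secreted glycoprotein that binds galectins, was at 17.8, 17.9 and 17.1 CPM in controls and 21.4, 21.5 and 22.7 CPM in mutants. Its SE was the smallest of the 5 members with an unadjusted p under 0.05, at a log2 fold change of 0.32 ± 0.10 (edgeR adjusted p 0.31), and the interval ended at 1.44-fold. Its unadjusted p was under 0.05 in 12 of 12 alternatives. Xaf1, which promotes cell death, was at 1.26, 1.61 and 2.16 CPM against 2.24, 2.76 and 2.4 CPM (log2 fold change 0.56 ± 0.27, edgeR adjusted p 0.771). Ifi44 was at 0.864, 0.513 and 0.877 CPM against 1.36, 1.12 and 0.945 CPM, again without overlap. Ifi27, a protein of the mitochondrial and nuclear membranes, was at 26.2, 22.7 and 20 CPM against 23.6, 28.7 and 29.1 CPM, with overlap. Rtp4 at 0.05 and Ifi35 at -0.06 had overlapping groups.

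The 4 members below the filter gave little information. Trex1, the DNA exonuclease whose loss causes an interferon response, had 0 counts in every library, and its 1147 exonic bases lie wholly within exons of Atrip on the same strand. The sources used here do not say how reads in such shared exons were counted, and no level of Trex1 is read from the 0. Mx1, an antiviral GTPase that is defective in C57BL/6J mice, had 0, 11 and 7 counts in controls and 3, 4 and 15 counts in mutants. Zbp1, a sensor of Z-form nucleic acid that can set off cell death, had 7 counts over each group. Cxcl10, the chemokine most often used to track interferon signalling in the brain, had 2, 8 and 6 counts in controls and 4, 5 and 7 counts in mutants, a ratio of mutant to control of 1.1 with a counting interval of 0.514 to 2.34. These counts allow differences of more than 2-fold.

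The mean level of the members differed between libraries. The mean log2 CPM of the 38 tested members, taken from its mean over the 6 libraries, was -0.12, -0.05 and -0.08 in the control libraries and 0.003, 0.17 and 0.08 in the mutant libraries. Every mutant library was therefore above every control library, mutant replicate 1 by less than the control libraries differed among themselves. Mutant replicate 2 was the highest, and 14 of the 38 members had their highest level there, Usp18, Ifit1, Ifit3, Rsad2, Ddx60 and Xaf1 among them. Mutant replicate 1 was highest for 8 members and lowest for 9, and control replicate 3 was highest for 4 and lowest for 11. The same counts were not made over all genes tested. Without mutant replicate 2, 22 of 39 tested members had a positive log2 fold change, and 4 were higher and 1 lower at an unadjusted p under 0.05, where 4.81% of all genes were higher. Without control replicate 3 the figures were 28 of 39, with 7 higher and 0 lower, where 3.25% of all genes were higher. Among members whose promoter window held the ISRE letters, 13 of 17 tested had a positive log2 fold change with a median of 0.11, and among those whose window did not, 10 of 16 with a median of 0.04, a difference that was not tested.

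**Figure D3:**
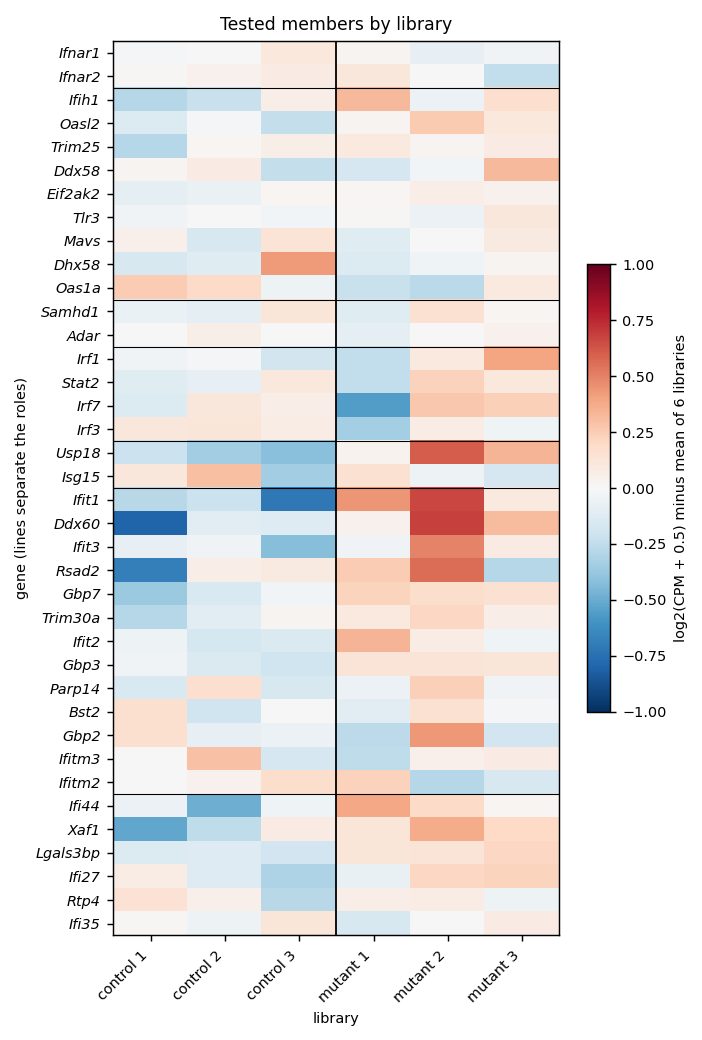
Rows are the 38 tested members ordered by role and columns the 6 libraries, and the colour gives log2(CPM + 0.5) minus the gene's mean over the libraries, from blue (lower) to red (higher). Red cells are most intense in mutant replicate 2 for Usp18, Ifit1, Ddx60, Ifit3 and Rsad2, while the rows of Ifnar1, Tlr3, Eif2ak2 and Adar stay pale in all 6 libraries.

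Further genes of the pathway were taken from lists made by function. Of 56 other interferon-stimulated genes, 40 were tested and 0 passed an adjusted p of 0.05 in edgeR, with 31 positive and 9 negative log2 fold changes and a median of 0.10. The gene with the smallest p among those higher was Iigp1, an interferon-inducible GTPase, at 1.46, 1.46 and 0.877 CPM in controls and 2.08, 2.91 and 1.89 CPM in mutants (log2 fold change 0.85 ± 0.30, edgeR adjusted p 0.428). Among those lower it was Ifi47, at -0.53 ± 0.35. Every mutant library was above every control library in 7 of the 40, and below in 0, against 6.23% and 5.42% of all genes tested. The mean log2 CPM of the 40 overlapped between the groups. The summed level of all 56 did not, at 342 to 366 CPM in controls and 373 to 379 CPM in mutants. For the 42 members it was the reverse, since their sums overlapped, at 514 to 531 CPM and 516 to 560 CPM. Of 33 other sensing and adaptor genes, 30 were tested and 0 passed, with a median of 0.02. Tlr7, the endosomal receptor for single-stranded RNA, was at 5.25, 6.81 and 6.07 CPM against 9.04, 6.49 and 10.1 CPM (0.50 ± 0.18, edgeR adjusted p 0.439). Rnaseh2c, a subunit of the nuclease that removes RNA from DNA, was at 33.0, 24.1 and 23.6 CPM against 22.7, 23.4 and 20.6 CPM (-0.28 ± 0.12, edgeR adjusted p 0.723).

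The receptor signalling genes were at similar levels in both groups, with 11 of 12 tested, 0 past the threshold, 4 positive and 7 negative log2 fold changes and overlapping groups in every one. Among the genes lower in this list the smallest p was that of Il10rb, a shared receptor chain, at -0.15 ± 0.14. Genes of antigen presentation by MHC class I, which interferon raises in most cell types, showed no common direction. Of 13, 12 were tested and 0 passed, 7 were positive and 5 negative, and the median was 0.001. Nlrc5, their transcriptional activator, was at 0.59 ± 0.46 and Psmb9, a subunit of the immunoproteasome, at -0.26 ± 0.29. As in the receptor signalling list, the groups were apart in none of the 12. Over all genes tested, 6.23% were apart with the mutants above and 5.42% with the mutants below, so 0 in lists of this length gives little information.

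Cell types that could carry these transcripts were checked by their markers, since in RNA of whole brain fewer cells of a type and less RNA per cell cannot be told apart. The tissue label was borne out by the neuronal markers, all 8 of which were tested, summing to 4240 to 4373 CPM in controls and 4275 to 4465 CPM in mutants. The 12 microglial markers summed to 843 to 942 CPM in controls and 881 to 1011 CPM in mutants, with overlap and a median log2 fold change of 0.04. The 8 endothelial markers summed to 634 to 680.3 CPM and 592 to 680.3 CPM, and the 8 markers of pericytes and fibroblasts to 749.8 to 879 CPM and 662 to 838 CPM. Of 8 leukocyte markers only Ptprc was tested, Ly6g had 0 counts in every library and the sum was 7.02 to 8.58 CPM against 6.24 to 10.2 CPM. The 8 astrocyte markers had a median of 0.11 and summed to 8612 to 9830 CPM against 9527 to 10200 CPM.

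Marker sums of 2 other lists did not overlap between the groups. All 8 oligodendrocyte markers had negative log2 fold changes with a median of -0.47, 2 of them (Mog and Cldn11) fell at an edgeR adjusted p under 0.05, and the sum was 21576 to 25839 CPM in controls and 17129 to 19850 CPM in mutants, without overlap. The 6 markers of ependyma and choroid plexus summed to 1447 to 1744 CPM in controls and 1075 to 1285 CPM in mutants, with a median log2 fold change of -0.07 and 0 past the threshold. Most of this sum was Ttr, the transthyretin of the choroid plexus, whose mean was 1498 CPM in the control group and 1100.4 CPM in the mutant group (edgeR adjusted p 0.0764), and the other 5 markers overlapped between the groups, 3 of them with positive log2 fold changes. The part of these differences in the values of the interferon-response genes was not tested.

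**Figure D4:**
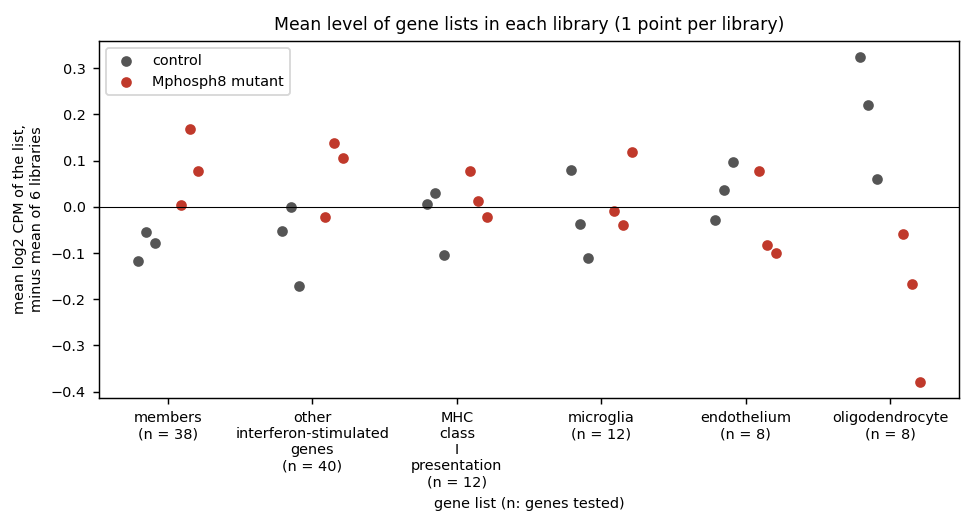
Each point is the mean log2 CPM of a gene list in 1 library minus its mean over the 6 libraries, with controls in grey and mutants in red and n the number of genes tested. The 3 mutant libraries lie above the 3 control libraries for the members, overlap them for the other interferon-stimulated genes, MHC class I, microglial and endothelial lists, and lie below them for the oligodendrocyte list.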

How the data were processed

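Polyadenylated RNA of 6 whole brains was sequenced as single reads of 50 bases. The authors trimmed the reads, filtered out those that matched ribosomal DNA, the mitochondrial genome, phiX or adapters, mapped what was left to GRCm38 and deposited raw read counts per Ensembl gene made with featureCounts. The sources used here give neither the strand setting nor the treatment of reads in more than 1 gene.

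Symbols, coordinates and merged exon lengths were taken from GENCODE M21 (GRCm38), which matched 54495 of 54532 identifiers. Transcripts were searched for 50-base words shared with genes that do not overlap them on the same strand. Counts were tested with edgeR 4.0.16 (R 4.3.3), using filterByExpr, TMM and the quasi-likelihood F test with genotype as the only term on all 6 libraries, with Benjamini-Hochberg adjustment over 16731 genes. A gene was called at an adjusted p under 0.05 and more than a 2-fold change. Standard errors and 95% intervals were derived from the F statistic. CPM use the effective library size. Means per list use log2 CPM with a prior count of 2. Intervals of pooled counts are exact binomial and cover counting error only. The fits were tested on simulated data with known changes.

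The members and the gene lists were chosen with earlier results of these data known. Any member could be named. Of each pathway list the tested gene with the smallest p in each direction was named, and interferon genes with a count. A gene that this rule selects is not reported here. Controls and mutants are described as littermates, but which brains shared a litter is not given. The test took the brains as independent, so its p-values do not account for shared litters and may not hold for other litters. Replicates differed by more than sampling noise, with chi-square per degree of freedom from 3.42 to 12.3. The test was repeated with a replicate block, with a fold limit of 1.5, without each library, unfiltered, on genes of at least 1 CPM in 3 libraries, with RLE scaling, with limma-voom (limma 3.58.1) and with DESeq2 1.42.0.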

Additional observations from a re-analysis of the deposited data

How the results depend on the processing

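The count of members called higher was 0 on all 6 libraries and in 12 of the 13 alternatives. With no filter on low counts it was 1, and without the fold limit also 1, in both cases Ifit1, at a log2 fold change of 1.02 with an edgeR adjusted p of 0.035. The cause was not tested. The count of members called lower was 0 in all alternatives, with and without the fold limit. The median log2 fold change of the tested members, 0.10, ran from 0.079 without mutant replicate 2 to 0.16 without mutant replicate 1. The number of members whose interval excludes a 2-fold rise, 33 of 38, ran from 31 to 33 of 38 or 39 tested. That number was taken only with RLE scaling, limma-voom, the replicate block and without each library. It was not taken with DESeq2, unfiltered or on genes of at least 1 CPM. The sign of the log2 fold change was the same in all refits for 22 of the 38 members, 18 of them positive and 4 negative. The Mphosph8 log2 fold change ran from -1.13 to -0.85 in the fits without 1 library.

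Same-numbered libraries deviated from their group means with correlations of 0.10, -0.05 and 0.08, and were not treated as pairs. In a fit with the replicate block 0 members were called, the median was 0.09, and the smallest adjusted p was 0.111, for Ifit1. Depth limits the genes with the largest differences, since Usp18, Ifit1 and Ddx60 rest on 36 to 106 counts per group.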
